A study of Homo sapiens with 5 samples.

Results

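The Schlafen genes of human chromosome 17 were followed through RNA-seq of TOV21G, a cell line of ovarian clear cell carcinoma in which ARID1A is mutated. Of the 30476 genes in the count table, 5 rows carried the identifiers of members of this family, namely SLFN5 (ENSG00000166750), SLFN11 (ENSG00000172716), SLFN12 (ENSG00000172123), SLFN12L (ENSG00000205045) and SLFN13 (ENSG00000154760). They were chosen on measured values of these same libraries, the RNA level of SLFN11 in clone 4, and every comparison of clone 4 with clone 3 or with parental cells below is therefore a description with no test. SLFN14 was not analysed here. The 5 libraries comprised 1 of parental TOV21G cells without drug and 4 of EZH2 inhibitor-resistant (EIR) cells. The EIR cells had been selected from TOV21G by raising GSK126, an inhibitor of the histone methyltransferase EZH2, through 5, 10, 15 and 20 uM, after which clones were picked. EIR clones 3 and 4 were each profiled untreated and treated with GSK126, at a dose and duration that the labels do not give. All groups therefore share the mutated ARID1A, each EIR clone stands for 1 picked clone, and parental cells have no replicate.

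Schlafen proteins are a family of mammalian proteins, many of them induced by interferon, that act on nucleic acids. SLFN11 is recruited to stalled replication forks, where it blocks replication under DNA damage, and tumour cells that express it are known to be more sensitive to drugs that damage DNA. SLFN11 and SLFN13 are also known to cleave transfer RNA, SLFN12 is an RNase that small molecules join to the phosphodiesterase PDE3A in a complex toxic to the cell, and SLFN5 is known as a nuclear repressor of viral transcription. In tumours, the SLFN11 gene is often silent, with methylation of its promoter DNA or of histone H3 by EZH2. Neither mark was measured in these libraries.

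The 5 genes lie side by side in 294.608 kb of chromosome 17 (33570090 to 33864697, GRCh37, annotation of GENCODE release 44). SLFN5 lies on the plus strand at 33570090 to 33600674. The other members lie on the minus strand, with SLFN11 at 33677324 to 33700720, SLFN12 at 33737941 to 33760302, SLFN13 at 33762115 to 33775856 and SLFN12L at 33791268 to 33864697. The 250 bases before the RefSeq start of SLFN11, SLFN12 and SLFN12L are shown because SLFN11 and SLFN12, close together on 1 strand, had the widest ratios between the libraries described below, with SLFN12L as a neighbour on that strand at a few counts. They are from RefSeq, build GRCh38.p14, which held an entry for 3 of the 5 members. SLFN5 and SLFN13 were not matched. The intervals are chr17:35373622-35373871 for SLFN11, chr17:35433175-35433424 for SLFN12 and chr17:35537679-35537928 for SLFN12L, all on the minus strand and written 5′ to 3′, with CpG dinucleotides in capitals.
SLFN11: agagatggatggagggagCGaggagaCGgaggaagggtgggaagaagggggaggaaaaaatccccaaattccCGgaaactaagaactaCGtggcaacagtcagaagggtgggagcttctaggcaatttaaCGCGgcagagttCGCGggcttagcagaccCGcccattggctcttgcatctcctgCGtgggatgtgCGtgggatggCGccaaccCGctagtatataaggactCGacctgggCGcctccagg
SLFN12: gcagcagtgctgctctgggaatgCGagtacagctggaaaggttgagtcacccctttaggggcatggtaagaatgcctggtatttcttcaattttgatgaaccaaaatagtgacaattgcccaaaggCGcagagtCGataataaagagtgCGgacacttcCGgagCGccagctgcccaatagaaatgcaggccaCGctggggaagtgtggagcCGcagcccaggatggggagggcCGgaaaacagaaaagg
SLFN12L: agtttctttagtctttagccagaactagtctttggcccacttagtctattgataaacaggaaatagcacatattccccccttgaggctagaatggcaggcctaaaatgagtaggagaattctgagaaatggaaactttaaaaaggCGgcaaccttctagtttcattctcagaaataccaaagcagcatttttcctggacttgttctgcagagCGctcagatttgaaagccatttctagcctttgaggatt

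The SLFN11 window held 15 CpG (57.6% GC), the SLFN12 window 9 (53.2% GC) and the SLFN12L window 2 (40.8% GC), where the median over 35116 such windows was 11. Both strands were searched for an interferon response element (GAAANNGAAA) and for the core of ETS factor sites (CCGGAA), whose letters can overlap where CCGGAA ends in the start of GAAANNGAAA. The interferon element occurred 1 time in the SLFN12L window, 126 bases before the start, in none of the other windows shown, and in 3.02% of all windows. The ETS core occurred 1 time in the SLFN11 window (179 bases before the start) and 2 times in the SLFN12 window (94 and 17 bases before the start), against 14.5% of all windows with a match. These are matches of letters only, and no binding was measured.

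SLFN11 RNA was present in clone 3 and at or near 0 in clone 4 and in parental cells. The estimated counts were 3 in parental cells, 682 in untreated clone 3, 675 in GSK126-treated clone 3, 0 in untreated clone 4 and 0 in GSK126-treated clone 4. After division by the library size factors of DESeq2, these were 3.02, 631, 667, 0 and 0 normalized counts in the same order. Clone 3 thus stood far above the other 3 libraries, and no other library overlapped it. In clone 3 the mean was 649 ± 25.2 normalized counts (SD, n = 2 libraries of 1 clone). Taking 3 counts per library as the floor, SLFN11 was at least 209-fold lower in clone 4 than in clone 3. A count of 0 allowed a level of up to 0.102 CPM in untreated clone 4 and 0.118 CPM in the treated library, by counting error only. In bulk RNA, fewer cells with SLFN11 RNA and less of it per cell cannot be told apart.

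The genes had been singled out for a loss of SLFN11 in clone 4, and that description held against clone 3 alone. The parental library, with 3 counts, was itself at the floor, so no fold between clone 4 and parental cells is given. Against parental cells, the gene that stood apart was SLFN11 in clone 3, at 215 times the parental level, with a 95% interval from counting error of 73.3 to 1042. The DESeq2 log2 difference for clone 3 was 7.75 with a standard error of 0.90, given without a p because the presence of SLFN11 in clone 3 is part of what selected it. At this depth neither parental cells nor clone 4 had SLFN11 above the floor.

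**Figure D1:**
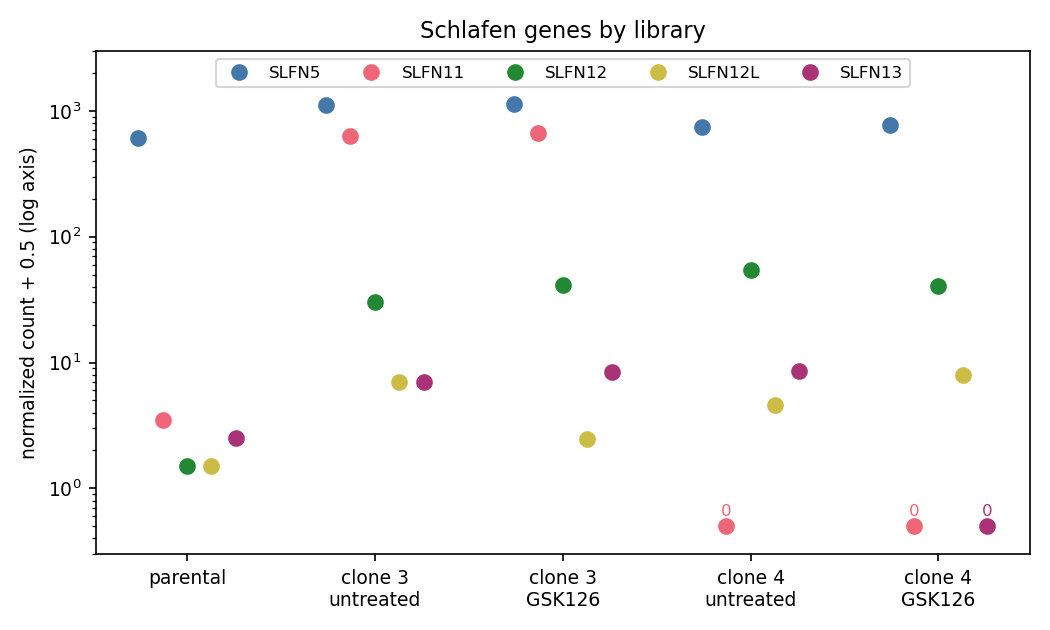
Normalized counts of the 5 Schlafen genes (plus 0.5, log axis) in each of the 5 libraries, 1 point per gene and library, with 0 written above points that had no counts. SLFN11 sits at 631 and 667 in clone 3, at 3.02 in parental cells and at 0 in clone 4, while SLFN5 lies between 602 and 1137 in every library.

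SLFN5 was the member expressed in every library. Its normalized counts were 602 in parental cells, 1112 in untreated clone 3, 1137 in GSK126-treated clone 3, 743 in untreated clone 4 and 772 in GSK126-treated clone 4. The order was parental, clone 4 and clone 3, with no overlap between the libraries of these cells. With 1 parental library, lack of overlap alone sets a gene little apart, and its share over all genes is not given here. The nearby genes AP2B1 and CCT6B, not called in clone 3, also lay outside the parental value in clone 3. This limit holds for each lack of overlap with parental cells given below. Clone 3 was at 1.87 times the parental level (95% counting interval 1.70 to 2.04) and clone 4 at 1.26 times (1.14 to 1.38). The fit of clone 3 against parental cells took the spread from the 2 libraries of each clone, parental cells being 1 library, and DESeq2 called 14.7% of 16886 genes higher and 14.5% lower, so that a call was common. In it SLFN5 was higher by 0.90 on the log2 scale with a standard error of 0.22 (adjusted p = 0.000376, DESeq2; 0.00166, edgeR). The call was lost without the treated clone 3 library (adjusted p = 0.0812, DESeq2) and without the untreated one (adjusted p = 0.0602, DESeq2), at log2 differences of 0.88 and 0.92. SLFN5 was 1.48 times higher in clone 3 than in clone 4 (95% counting interval 1.39 to 1.59).

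SLFN12 was near absent from parental cells and present in both EIR clones. It had 1 count in parental cells, 32 and 41 in untreated and treated clone 3, and 53 and 38 in untreated and treated clone 4, or 1.01, 29.6, 40.5, 53.9 and 40.2 normalized counts. All 4 EIR libraries were above the parental library, and the ranges of the clones overlapped between 40.2 and 40.5. Clone 3 stood at 34.6 times the parental level (95% counting interval 6.03 to 1387) and clone 4 at 46.9 times (8.20 to 1871). Since both ratios rest on the same 1 parental count, they are not independent of each other. SLFN12 too was called higher in clone 3 than in parental cells, by 5.12 on the log2 scale with a standard error of 1.66 (adjusted p = 0.00970, DESeq2; 0.000785, edgeR). Without the treated clone 3 library the adjusted p was 0.0760 (DESeq2) at a log2 difference of 4.88. The difference between clones was within counting error, at a clone 3 to clone 4 ratio of 0.739 (95% interval 0.536 to 1.02).

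SLFN12L and SLFN13 stayed at a few counts. SLFN12L had 1 count in parental cells, 7 and 2 in untreated and treated clone 3, and 4 and 7 in untreated and treated clone 4. For SLFN13 these were 2 counts in parental cells, 7 and 8 in clone 3, and 8 and 0 in clone 4. DESeq2 gave neither gene an adjusted p for clone 3 against parental cells, and edgeR gave adjusted p = 0.503 for SLFN12L and 0.545 for SLFN13. A difference from parental cells was not detectable at this depth, the counting intervals of clone 3 over parental cells being 0.592 to 187 for SLFN12L and 0.828 to 32.1 for SLFN13. The 0 of SLFN13 in treated clone 4 stood against 8 counts in the untreated library. The upper 95% bound of the ratio was 0.609, below 1, by counting error alone.

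Since RSEM divides reads among similar genes, the sequence the members share was counted. Of the 75-base windows in annotated SLFN11 transcripts, 7.27% also occurred in SLFN13 transcripts, and 4.96% of those of SLFN13 occurred in SLFN11. SLFN12 and SLFN12L shared 0.129% and 0.0438% of their windows with other members, and SLFN5 shared 0%. The split between SLFN11 and SLFN13 is therefore uncertain, and these shares do not bound its error for SLFN13. In untreated clone 3 SLFN13 had 7 counts beside 682 of SLFN11, and reads of SLFN11 may be among them. SLFN12, SLFN12L and SLFN13 summed, so that no division among them matters, gave 4 counts in parental cells, 46 and 51 in untreated and treated clone 3, and 65 and 45 in untreated and treated clone 4. The sum was 11.5 times the parental level in clone 3 (95% counting interval 4.35 to 43.1) and 14.2 times in clone 4 (5.38 to 52.9). SLFN12 made up most of the sum in the EIR libraries, with 32 of 46 counts in untreated clone 3 and 53 of 65 in untreated clone 4. SLFN11 is left out of the sum, which therefore does not address the split between SLFN11 and SLFN13. This sum was added after the data had been seen.

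Levels were compared between genes per kilobase of annotated exon. In parental cells SLFN5 had 56.4 normalized counts per kilobase, SLFN11 0.505, SLFN12 0.274, SLFN13 0.216 and SLFN12L 0.0738, the last 4 resting on 1 to 3 counts each and not distinguishable from one another. In untreated clone 3 SLFN11 reached the level of SLFN5, at 106 against 104 normalized counts per kilobase, followed by SLFN12 at 8.06, SLFN13 at 0.695 and SLFN12L at 0.475. Treated clone 3 had 112 for SLFN11 and 106 for SLFN5. In untreated clone 4 the order was SLFN5 at 69.6, SLFN12 at 14.7, SLFN13 at 0.872, SLFN12L at 0.298 and SLFN11 at 0. With the median transcript length in place of all annotated exons, SLFN11 stood above SLFN5 in untreated clone 3, at 1018 against 438 normalized counts per kilobase, so the order of these genes in clone 3 depends on the length used. Of all counts assigned to the family, SLFN11 held 0.496% in parental cells, 35.4% and 36.0% in untreated and treated clone 3, and 0% in both libraries of clone 4.

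Whether GSK126 itself moved the family was asked within the EIR cells, treated against untreated libraries. SLFN11 is given no p here, since each arm of that fit holds clone 4 at 0 counts beside clone 3. None of the other members was called by DESeq2 (0 of 4) in a comparison that called 1 gene of 29847 tested, or 0.00335% of them. edgeR also called 0 of 4, and 0 of 4 had an unadjusted p under 0.05 in DESeq2. The log2 differences were 0.03 for SLFN5, -0.06 for SLFN12, -0.19 for SLFN12L and -0.89 for SLFN13 (adjusted p = 1.00 for each, DESeq2). With the clone number as replicate block, DESeq2 called 4 genes, with 0 members among them. Within clone 3 the treated to untreated ratio of SLFN11 was 1.06 (95% counting interval 0.948 to 1.18). For SLFN5 it was 1.02 (0.942 to 1.11) in clone 3 and 1.04 (0.937 to 1.15) in clone 4. SLFN12 had a ratio of 1.37 (0.840 to 2.24) in clone 3 and 0.746 (0.478 to 1.15) in clone 4. SLFN11 had 0 counts in clone 4 with and without the drug. SLFN13 had 8 counts in untreated and 0 in treated clone 4, and the upper 95% bound of that ratio, 0.609, was below 1. The counting intervals of SLFN13 in clone 3 and of SLFN12L in both clones held 1. These intervals cover counting error alone, and each clone was profiled 1 time per condition.

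**Figure D2:**
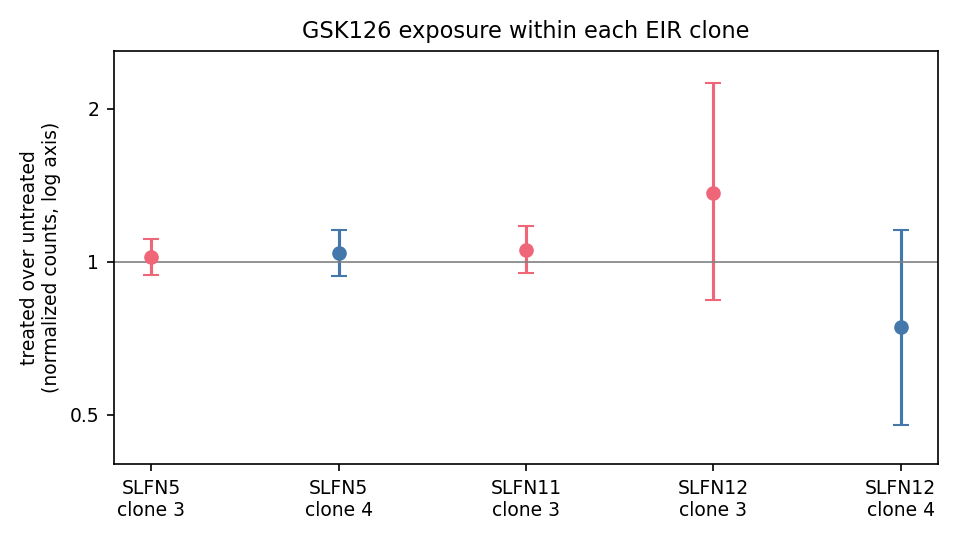
Ratio of GSK126-treated to untreated normalized counts (log axis) within clone 3 (red) and clone 4 (blue) for the members with over 10 counts in both libraries, with bars for the exact 95% interval of counting error. All 5 intervals hold 1, from 1.02 for SLFN5 in clone 3 to the widest, 0.840 to 2.24, for SLFN12 in clone 3. SLFN13 in clone 4, at 8 and 0 counts with an upper 95% bound of 0.609, is below the count limit and not drawn.

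None of the neighbours reported within 500 kb was called in clone 3. Of 78 annotated genes within 500 kb of the members, 22 were in the table, and 8 of those that averaged 10 or more normalized counts are reported. These were CCT6B, ZNF830, LIG3, RFFL, RAD51D and NLE1 on the SLFN5 side and SNHG30 and AP2B1 on the SLFN12L side. RAD51D and LIG3 encode DNA repair proteins, and AP2B1 encodes a clathrin adaptor subunit. RAD51D, the nearest of the DNA repair genes, had 260 normalized counts in parental cells, 230 and 279 in untreated and treated clone 3, and 322 and 300 in clone 4. In clone 3 against parental cells, 0 of the 8 were called higher and 0 lower by DESeq2, and edgeR likewise called 0. Over all genes DESeq2 called 14.7% higher and 14.5% lower, and 8 genes are few to compare with these shares. At an unadjusted p under 0.05 in DESeq2, 2 of the 8 passed, LIG3 at a log2 difference of -0.42 and RFFL at -0.46. Their median log2 difference was -0.10, against -0.06 over all genes that averaged 100 or more normalized counts. Between clones their mean log2 differences, clone 4 minus clone 3, lay from -0.26 to 0.30. None of the 8 was at least 2-fold apart in every pair of libraries of the clones, against 4.77% (552 of 11564) of all genes that averaged 100 or more normalized counts. At that share 8 genes are too few for a comparison, and the neighbours were admitted at an average of 10 rather than 100 normalized counts. Their log2 ratios to parental cells ran from -0.60 to 0.81 in untreated clone 4 and from -0.57 to 0.41 in treated clone 4. Neighbours were thus transcribed in clone 4, at levels close to those of clone 3, on both sides of the 0 counts of SLFN11. SLFN5, SLFN12 and SLFN12L, the members on either side, also had counts in clone 4. With the window widened to 1 Mb, 1 of 10 reported neighbours was called higher, against 14.7% of all genes. It was CCL2, a chemokine that attracts monocytes, on the SLFN5 side at 32582293 to 32584227. CCL2 had 299 normalized counts in parental cells, 3418 and 3712 in untreated and treated clone 3, and 406 and 261 in clone 4. It was high in both clone 3 libraries, with no overlap with the other 3, and its log2 difference in clone 3 was 3.58 with a standard error of 0.25 (adjusted p = 3.42e-43, DESeq2). Unlike SLFN11, CCL2 was above the floor in every library. The copy number of the locus was not measured.

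**Figure D3:**
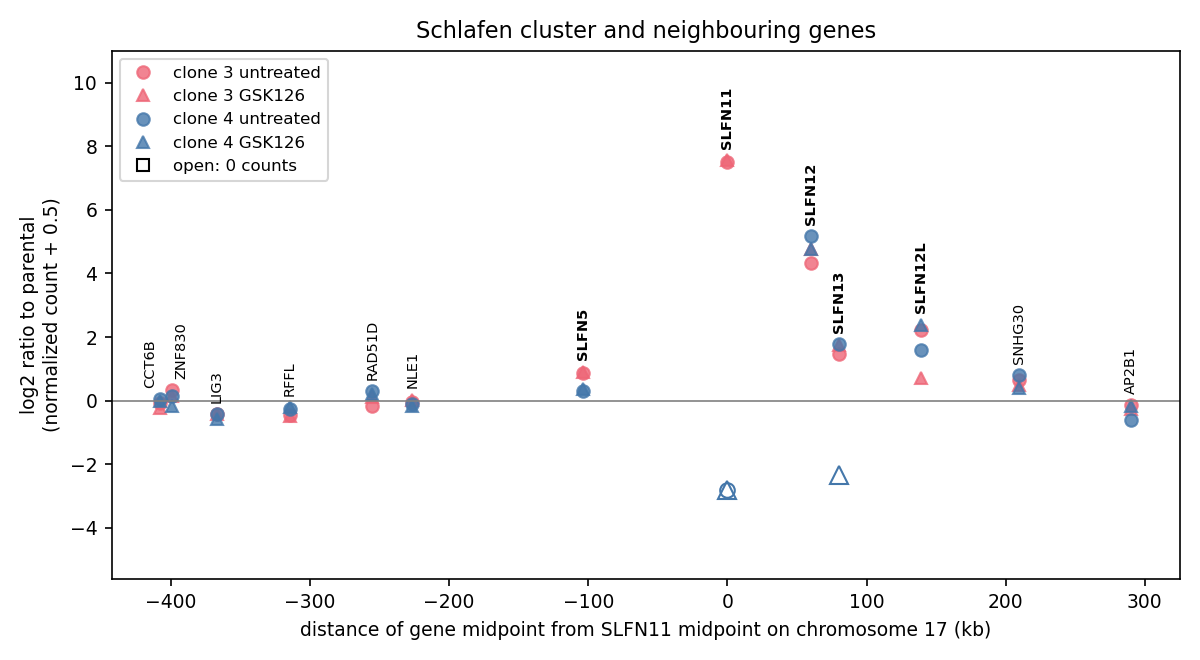
Log2 ratio to parental cells of the normalized count (plus 0.5) for the 5 Schlafen genes (bold) and 8 neighbours that averaged 10 or more normalized counts, by distance from SLFN11 in kb, with circles for untreated and triangles for GSK126-treated libraries and open symbols for 0 counts. SLFN11 is high in clone 3 alone and SLFN12 in both clones, while the neighbours stay between -0.60 and 0.81.

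At fixed limits, the on and off pattern of SLFN11 was shared by few genes. Requiring at most 3 counts in parental cells and in both clone 4 libraries and at least 100 normalized counts in both clone 3 libraries, 9 of 30476 genes (0.0295%) qualified, SLFN11 among them. The others were IL7, ENPP5, NRK, GATA4, LEF1, GUCY1A2, HOXB9 and TMEM132D-AS1. SLFN11 had the highest counts of them, and the next was GUCY1A2, a guanylate cyclase subunit, with 0 in parental cells, 363 and 466 in untreated and treated clone 3, and 3 in each clone 4 library. LEF1, a transcription factor of Wnt signalling, had 1, 150 and 225, and 1 and 1. GATA4, a transcription factor of endoderm and gonad, had 1, 147 and 129, and 0 and 0. HOXB9, on the same chromosome but outside the 1 Mb around the family, had 2, 218 and 176, and 1 and 0. The number of genes depends on the limit of 3 counts, which is the parental count of SLFN11 itself. NAP1L3 missed it with 6 counts in parental cells, at 355 and 340 in untreated and treated clone 3 and 0 in both clone 4 libraries. The mirror pattern, with parental cells and clone 3 at the floor and clone 4 on, was met by 0 genes.

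By the Euclidean distance of centred log2 profiles over the 5 libraries, the genes nearest to SLFN11 were NAP1L3 (1.56), EMB (1.96), MARK1 (2.57), ALDH1A3 (3.05) and PLXDC2 (3.11). NAP1L3, a nucleosome assembly protein gene on the X chromosome, had 6.04 normalized counts in parental cells, 329 and 336 in untreated and treated clone 3, and 0 in both clone 4 libraries. EMB, which encodes the cell surface protein embigin, had 39.3, 1584 and 1864, and 4.07 and 2.12. With Pearson's correlation as the measure, 0 of the 5 nearest genes were the same, and 38 genes reached a correlation of 0.99, so that over 5 libraries from 3 sources of cells the ranking is not fixed. For SLFN5, the nearest were KLF10 (0.065), UBE2W (0.092) and LRRC49 (0.097). KLF10, a zinc finger transcription factor induced by TGF-beta, had 1073 normalized counts in parental cells, 2053 and 2010 in untreated and treated clone 3, and 1381 and 1415 in clone 4.

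Schlafen genes are known interferon targets. Of 8 genes of interferon signalling reported here, 7 had an adjusted p in clone 3 against parental cells, 1 was called higher and 1 lower by DESeq2 (14.3% each), with a median log2 difference of -0.16. These shares are near the 14.7% and 14.5% of all genes. JAK1, a kinase of the receptor, had 617 normalized counts in parental cells, 1085 and 1139 in untreated and treated clone 3, and 839 and 719 in clone 4, and was higher in clone 3 by 0.85 (adjusted p = 0.00137, DESeq2). STAT2, a transcription factor of the pathway, was called lower at -0.94 (adjusted p = 0.000295, DESeq2). The ligand gene IFNB1 had at most 1 normalized count in every library.

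Of 8 interferon target genes, 2 were called higher and 2 lower in clone 3 (25.0% each, against 14.7% and 14.5% of all genes), with a median log2 difference of 1.39. A list of 8 genes is short for a comparison with these shares. MX1, an antiviral GTPase, had 76.5 normalized counts in parental cells, 453 and 462 in untreated and treated clone 3, and 65.1 and 106 in clone 4, a log2 difference for clone 3 of 2.58 (adjusted p = 4.64e-09, DESeq2). OAS1, which makes the activator of RNase L, had 23.2, 173 and 207, and 89.5 and 107, a log2 difference of 3.03 (adjusted p = 4.07e-07, DESeq2). ISG15, a ubiquitin-like protein, was lower, with 529, 206 and 216, and 142 and 151 (log2 difference -1.32, adjusted p = 0.000603, DESeq2). IFIT1, an antiviral RNA-binding protein, was lower by DESeq2 at -0.94 (adjusted p = 0.0117), and edgeR additionally called IFI44L higher (adjusted p = 0.0342, edgeR). With treatment as covariate IFIT1 lost its call, at a log2 difference of -0.81. The calls of ISG15 and IFIT1 were lost without either clone 3 library, at adjusted p = 0.0591 and 0.180 without the treated and 0.0694 and 0.182 without the untreated library (DESeq2). JAK1 lost its call likewise, at adjusted p = 0.132 and 0.0793, and STAT2 without the treated library alone, at 0.0689 (DESeq2). MX1 was highest in clone 3, while OAS1 was above parental cells in both clones. IFI44L had 5 counts in parental cells, 28 and 25 in untreated and treated clone 3, and 4 and 5 in clone 4. OAS2 had 2, 30 and 15, and 0 and 9 counts. IFIT2 had 207, 160 and 139, and 199 and 163 counts, and IFIT3 had 237, 334 and 343, and 436 and 306. OAS2, IFIT2 and IFIT3 were called in neither direction.

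ETS factors are known activators of the SLFN11 promoter. Of the 4 listed, 2 had an adjusted p in clone 3 against parental cells, and 1 of these was called higher. Over all genes 14.7% were called higher, and 2 genes are too few to compare with that share. ETS1 had 1723 normalized counts in parental cells, 3718 and 3942 in untreated and treated clone 3, and 2691 and 2411 in clone 4. It was thus above parental cells in both clones, while SLFN11 was so in clone 3 alone. The log2 difference of ETS1 in clone 3 was 1.15 with a standard error of 0.18 (adjusted p = 3.73e-09, DESeq2). ELF1, called in neither direction, ran from 1196 to 1501 normalized counts. FLI1 had at most 1.02 normalized counts and ERG at most 8.33, neither with an adjusted p. The median over the 2 with an adjusted p was 0.44.

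Of 2 partner genes of SLFN12 reported here, 1 was called higher and 1 lower in clone 3. Over all genes 14.7% were called higher and 14.5% lower, and 2 genes are too few to compare with these shares. The median log2 difference of 0.76 lies between opposite changes and describes neither gene. PDE3A, the phosphodiesterase to which SLFN12 binds, had 3921 normalized counts in parental cells, 206 and 218 in untreated and treated clone 3, and 2371 and 2381 in clone 4. Its log2 difference in clone 3 was -4.21 with a standard error of 0.20 (adjusted p = 4.65e-98, DESeq2). PDE3B, its paralog, rose from 17.1 normalized counts in parental cells to 758 and 1055 in clone 3, with 1945 and 2194 in clone 4, a log2 difference in clone 3 of 5.73 (adjusted p = 3.57e-39, DESeq2). SLFN12 and PDE3B were thus both above parental cells in all 4 EIR libraries, while PDE3A in clone 4 lay between parental cells and clone 3.

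**Figure D4:**
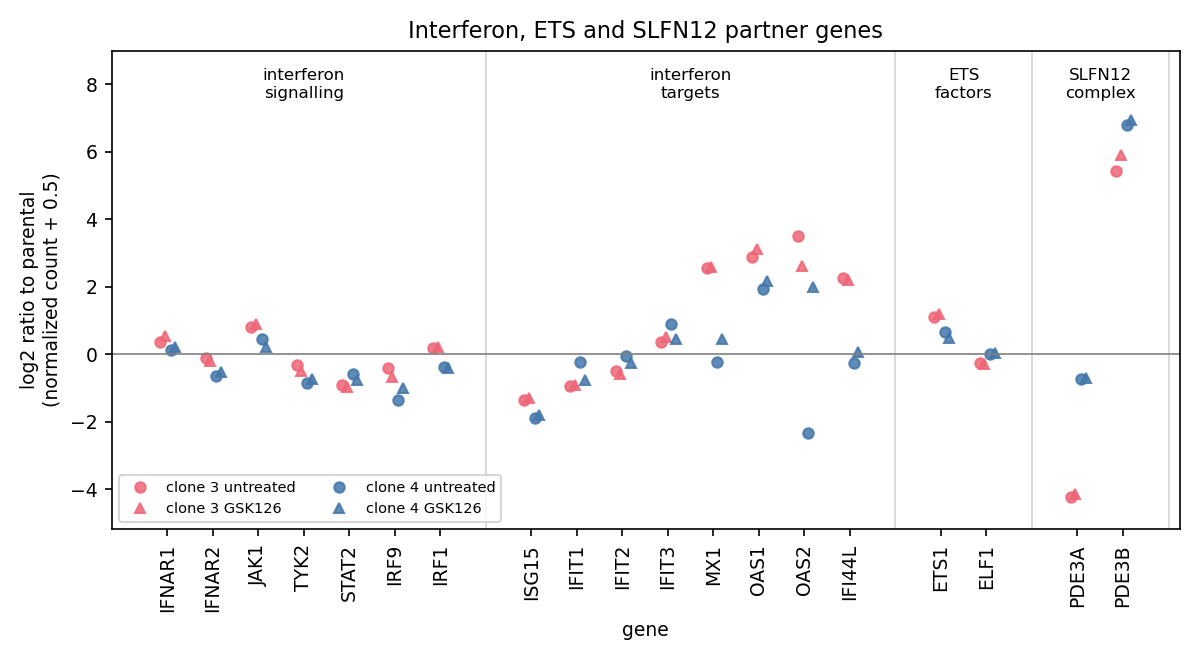
Log2 ratio to parental cells of the normalized count (plus 0.5) for interferon signalling genes, interferon targets, ETS factors and the SLFN12 complex that averaged 10 or more normalized counts, in clone 3 (red) and clone 4 (blue), circles untreated and triangles GSK126-treated. MX1 is high in clone 3 alone, PDE3A is low in clone 3, and PDE3B is high in both clones. The low point of OAS2 in untreated clone 4 is a count of 0.

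Of 15 replication fork and checkpoint genes, the setting in which SLFN11 acts, 3 were called higher (20.0%) and 2 lower (13.3%) in clone 3 by DESeq2, with a median log2 difference of 0.23. Over all genes these shares were 14.7% and 14.5%, and those of the list are near them. ATR, the kinase that signals stalled forks, was higher by 0.87 (adjusted p = 1.23e-05, DESeq2), with 1919 normalized counts in parental cells, 3333 and 3683 in untreated and treated clone 3, and 4208 and 3847 in clone 4. CDT1, a licensing factor of replication origins, was lower at -1.30 (adjusted p = 5.40e-06, DESeq2), with 975, 414 and 379, and 491 and 553. Both clones lay above parental cells for ATR and below them for CDT1. CLSPN, an adaptor in the ATR pathway, was higher by 0.63 (adjusted p = 0.00636, DESeq2) and DHX9, a helicase, by 0.54 (adjusted p = 0.00477, DESeq2; 0.0604, edgeR). RPA3, a subunit of the single-strand binding protein RPA, was lower at -0.74 (adjusted p = 0.00177, DESeq2). With treatment as covariate RPA3 lost its call, at a log2 difference of -0.68. The calls of CLSPN, DHX9 and RPA3 were lost without either clone 3 library, with adjusted p of 0.269, 0.115 and 0.0988 without the treated and 0.0829, 0.245 and 0.121 without the untreated library (DESeq2).

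Among 8 enzymes of gene silencing, 0 were called higher and 3 lower in clone 3 (37.5%, against 14.5% of all genes), with a median log2 difference of -0.14. A list of 8 genes is short for a comparison with that share. DNMT3A and DNMT3B, which set DNA methylation, were lower at -1.51 (adjusted p = 3.93e-06) and -0.80 (adjusted p = 0.000557), and HDAC1, a histone deacetylase, at -0.96 (adjusted p = 1.02e-06, all DESeq2). The call of DNMT3B was lost without the treated clone 3 library (adjusted p = 0.125, DESeq2). DNMT3A had 618 normalized counts in parental cells, 204 and 230 in untreated and treated clone 3, and 401 and 439 in clone 4, so both clones lay below parental cells. EZH2, the target of GSK126, ran from 2567 to 3296 normalized counts over the 5 libraries and was not called. In treated against untreated EIR cells, DESeq2 and edgeR called 0 genes of each of these lists, and 0 of them had an unadjusted p under 0.05 in DESeq2.

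Total counts ran from 25479238 to 30764963 per library. The cell identity marker PAX8 had 3031 to 4491 counts and KRT8 and KRT18 had 4331 to 18015, while EPCAM had 398 in parental cells, 426 and 498 in clone 3 and 0 and 1 in clone 4. CD3E and PECAM1 were not analysed here. Summed counts of 3 leukocyte markers (PTPRC, CD14 and LYZ) were 36 in parental cells, 28 and 32 in untreated and treated clone 3, and 23 and 38 in clone 4, and those of 2 endothelial markers were 9 to 20 in all libraries. The 3 fibroblast markers summed to 19 in parental cells, 58 and 66 in clone 3 and 14 and 20 in clone 4, against 682 and 675 counts of SLFN11 in clone 3. EPCAM did not follow SLFN11, since parental cells, at 3 SLFN11 counts, had EPCAM at the level of clone 3. The fibroblast sum was higher in clone 3, as SLFN11 was, and its part in that difference was not tested. The leukocyte sum joins markers that differed in opposite directions. CD14 had 27 counts in parental cells, 0 and 1 in untreated and treated clone 3, and 2 and 7 in clone 4. PTPRC had 2 in parental cells and 7 and 15 in clone 3, and LYZ had 7 in parental cells and 21 and 16 in clone 3. LUM was at 0 in all libraries but treated clone 3.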

How the data were processed

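Total RNA had been sequenced from stranded libraries. The authors aligned reads to hg19 with bowtie2 and used RSEM with Ensembl genes, of a release not given in the sources used here, to estimate counts. Use of strand in counting is likewise not given. The deposited values were estimated counts, all whole (0 values not whole), and were used as they stood. The parental column was the one with no clone tag. Of 30476 identifiers, 29203 (95.8%) matched GENCODE release 44 on GRCh37.

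DESeq2 1.42.0 (R 4.3.3) was the main test, as in the study, with its default size factors, two-sided Wald tests and a Benjamini-Hochberg adjusted p under 0.05 over all genes tested. edgeR 4.0.16 (quasi-likelihood) was the other tool. Treated and untreated EIR cells were compared over the 4 EIR libraries, and clone 3 with parental cells in a fit of 3 groups (parental, clone 3, clone 4) over all 5. The spread is that between the treated and untreated library of a clone, so p-values do not cover variation between clones or parental cultures. Clone numbers pair the libraries, since each clone was profiled with and without GSK126, and the libraries of a clone deviated together from their group means (correlation 0.862 across genes). The clone number as replicate block was an alternative.

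Log2 ratios used a pseudocount of 0.5. Groups with at most 3 counts per library were taken as at the floor. Ratios carry exact 95% intervals conditional on the summed counts. These intervals cover counting error only, since PCR reads without molecular identifiers are not independent molecules. The floor is a fixed setting and does not cover this either. Totals ran from 25479238 to 30764963 counts per library.

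The genes named were all members, other Schlafen genes, neighbours within 500 kb that averaged 10 or more normalized counts, the genes nearest in profile to SLFN11 (5) and SLFN5 (3), and lists of pathway and marker genes. A few results for single genes of these lists are left out and are not counted. Members and lists were chosen with earlier results of these data known, and the rule for genes sharing the on and off pattern was added after seeing the data. Alternatives were TMM and total count scaling, 10 counts in 2 libraries as a filter, an absolute log2 difference of at least 1, treatment as covariate, GC correction, leaving out each EIR library, and other measures of length, window and likeness.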

Additional observations from a re-analysis of the deposited data

Results flagged for a closer look

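The treated and untreated values of SLFN12 differed in opposite directions in the EIR clones, within counting error. On the log2 scale (pseudocount 0.5) it was higher by 0.45 in treated than in untreated clone 3 and lower in clone 4, at -0.42, a difference between clones of 0.86. Clone 3 had 32 counts untreated and 41 treated, and clone 4 had 53 and 38. With 1 library per clone and condition, the difference between the clones was not tested. The counting interval of each ratio held 1.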

How the results depend on the processing

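For treated against untreated EIR cells, DESeq2 called 1 gene, edgeR 0 (232 genes at an unadjusted p under 0.05, against 117 in DESeq2), DESeq2 with the replicate block 4, and leaving out 1 library 1 to 25, the 25 being without untreated clone 3. Members were called under none of these settings. Leaving out 1 clone 3 library leaves an arm of that fit with clone 4 alone, at 0 counts of SLFN11, and the fitted log2 difference of SLFN11 then ran from -23.13 to 22.57. The paired analysis with the replicate block changed no call of a member.

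For clone 3 against parental cells, 4925 genes were called by DESeq2, 3273 with treatment as covariate, 2514 with an absolute log2 difference of at least 1, and 1983 (without treated clone 3) to 5023 when 1 EIR library was left out. Over 9 alternatives with a test, SLFN5 kept its call in 7 (log2 difference 0.88 to 0.97 in these) and SLFN12 in 8 (4.95 to 5.33), the losses being those given above. SLFN5, at 0.90, also falls below a minimum absolute log2 difference of 1. GC correction moved the mean log2 ratio of SLFN12 in clone 3 from 4.54 to 4.27. SLFN5 moved from 0.90 to 0.95 and SLFN11 from 7.53 to 7.58. Among the genes corrected, those of low GC moved down and those of high GC up. IFI44L (38.6% GC) went from 2.22 to 1.68 in clone 3 and ISG15 (63.9% GC) from -1.32 to -0.90. The differences of the replication fork and silencing lists are given without GC correction.

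The bound for SLFN11 in clone 4 against clone 3 ran from 203-fold to 214-fold over 6 alternatives. No alternative gave a value for clone 4 against parental cells, since both were at the floor. The ratio of clone 3 to parental cells ran from 209 to 225 over alternatives added after the data were seen. The 3 parental counts of SLFN11 and the 1 count of SLFN12 set the width of every ratio to parental cells.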

Other observations

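Genes that were on or off as a whole in a clone were counted by the same limits as for SLFN11. On in parental cells and clone 3 and at the floor in clone 4 were 15 genes, and 0 genes were on in parental cells and clone 4 and at the floor in clone 3. At the floor in parental cells and on in all 4 EIR libraries were 12 genes. SLFN12, at 1 count in parental cells and 29.6 to 53.9 normalized counts in EIR cells, followed this last order below the limit of 100 normalized counts.

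IL7, a growth factor of lymphocytes, had 1 count in parental cells, 151 and 128 in untreated and treated clone 3, and 1 and 0 in clone 4. ALDH1A3, an aldehyde dehydrogenase that makes retinoic acid, had 10.1 normalized counts in parental cells, 256 and 457 in untreated and treated clone 3, and 0 and 2.12 in clone 4. Its level in clone 3 differed between the treated and untreated libraries more than that of SLFN11, at 631 and 667. SLFNL1, a Schlafen-like gene on chromosome 1 that is no member of the cluster, had 9 counts in parental cells, 4 and 3 in untreated and treated clone 3, and 8 in each clone 4 library.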
